A study of Mus musculus with 6 samples.

Results

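Chemokines are small secreted proteins that attract leukocytes, and 10 of them that stromal cells are known to release were followed here: Ccl2, Ccl7, Ccl8, Ccl11, Ccl19, Cxcl1, Cxcl5, Cxcl12, Cxcl14 and Cxcl16. They were taken by gene name from a table of 53801 mouse genes, and all 10 had a row. The table holds read counts of RNA from cells sorted as PDPN+PDGFRα+ out of MO5 tumors, made by placing the melanoma line B16-OVA under the skin of C57Bl/6 mice. The 3 libraries called DTR came from DTR+ mice, which carry a transgene that expresses the diphtheria toxin receptor under the Adam12 promoter, and the 3 called Ctrl came from DTR- littermates without it. The mice were adult and sex-matched, and both groups received diphtheria toxin, which kills cells that carry the receptor, so the comparison asks how chemokine RNA in the PDGFRα+PDPN+ stroma differs once ADAM12+ cells are targeted. No label ties a library to 1 animal or 1 pool, so p-values measure the spread between these libraries only.

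Fibroblasts respond to tissue damage and to cytokines such as interleukin-1 and tumor necrosis factor by releasing chemokines, largely through the transcription factor NF-kB. CCL2 and CCL7 draw CCR2+ monocytes, CCL8 is a close relative of both, CCL11 (eotaxin) draws eosinophils through CCR3, and CXCL1 and CXCL5 draw neutrophils through CXCR2. CXCL12 (ligand of CXCR4), CXCL14, CCL19 (ligand of CCR7) and the membrane-anchored CXCL16 (ligand of CXCR6) are often made without an inflammatory stimulus and position lymphocytes and precursor cells in tissues.

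Libraries held 22339635 to 34271929 counts, and values below are CPM, a gene's counts relative to the library total after TMM scaling, so that 3 counts, the smallest number read as present, stand for 0.0873 to 0.132 CPM. Adam12, the gene whose promoter drives the receptor, was at 215.9, 180.8 and 175.2 CPM in Ctrl and 164.9, 151.2 and 111.8 CPM in DTR. The groups did not overlap, and the log2 fold change was -0.42 (SE 0.154, edgeR quasi-likelihood adjusted p = 0.602). Markers of the sorted cells were present, with Pdgfra at 42.7 to 131.8 CPM and Pdpn at 46.0 to 99.2 CPM. The summed level of 10 fibroblast markers was 13691, 5251 and 5217 CPM in Ctrl and 10880, 5611 and 14170 CPM in DTR, which sets Ctrl 1, DTR 1 and DTR 3 apart from the rest. Each other library correlated least with DTR 3 (r across genes of 0.971 to 0.981), and its 5 markers of inflammatory fibroblasts summed to 2677 CPM, against 563 to 1178 CPM elsewhere. The 12 melanoma markers summed to 18068 to 22114 CPM, more than the fibroblast markers in every library, although the sort was for stromal cells. Sums over different genes do not give the share of melanoma RNA. The 13 macrophage and monocyte markers summed to 129 to 215 CPM, with Itgam at 0 throughout, and the 9 neutrophil markers to 1.34 to 7.72 CPM, with Ly6g and Camp at 0. Since Myd88, a gene that most cells use, was also listed at 0, these genes are only said to be listed at 0, with nothing read from it about the cells. In sorted cells measured in bulk, fewer cells that make a chemokine and less RNA per cell cannot be told apart. By the study's methods, CD45+ leukocytes and CD31+ endothelial cells were excluded by the sort before stromal cells were selected, and Ptprc, which encodes CD45, was at 16.3 to 49.7 CPM. The part of melanoma and leukocyte RNA in the chemokine values was not tested.

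The members sit in a few places of the genome (GRCm38, GENCODE M21). Ccl2 (chr11:82035571-82037453), Ccl7 (chr11:82045712-82047525), Ccl11 (chr11:82057823-82062955) and Ccl8 (chr11:82115185-82116799) lie in that order on the plus strand of 1 cluster, with Ccl12 between the last pair, and Cxcl16 (chr11:70453983-70459984) lies apart on the minus strand. Cxcl5 (chr5:90759360-90761624) and Cxcl1 (chr5:90891241-90893115) are in the CXC cluster. Cxcl12 (chr6:117168535-117181367) and Cxcl14 (chr13:56288643-56296551) are on chromosomes with no other member, as is Ccl19 (chr4:42754525-42756577), which has Ccl21a as a neighbor. Promoter stretches from RefSeq (GRCm38.p6) were found for 5 of the 10 members, and the 250 bases before the start were searched on both strands for GGAATTTCC, a core of the motif bound by NF-kB, and for the TATA box letters TATAAA. Of 32851 promoters, 0.286% held the first and 12.4% the second. Cxcl1 held the NF-kB letters, beginning 70 bases before its start, and Ccl8 held the TATA letters, beginning 32 bases before its start. The stretches of Ccl19, Cxcl12 and Cxcl14 held neither run of letters. The stretches of Cxcl1, Ccl8, Cxcl12 and Cxcl14 are printed because they show a member with the NF-kB letters, a member with the TATA letters and members with neither. Only these exact letters were searched, so a stretch without them can hold a related run, such as cataaaa near the end of the Cxcl1 stretch. Capitals mark the searched letters.
Cxcl1, chr5:90890995-90891244, plus strand: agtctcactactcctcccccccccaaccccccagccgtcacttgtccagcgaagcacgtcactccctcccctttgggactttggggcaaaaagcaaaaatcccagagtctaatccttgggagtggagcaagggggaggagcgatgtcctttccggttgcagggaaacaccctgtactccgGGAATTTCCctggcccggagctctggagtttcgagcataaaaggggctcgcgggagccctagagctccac
Ccl8, chr11:82114935-82115184, plus strand: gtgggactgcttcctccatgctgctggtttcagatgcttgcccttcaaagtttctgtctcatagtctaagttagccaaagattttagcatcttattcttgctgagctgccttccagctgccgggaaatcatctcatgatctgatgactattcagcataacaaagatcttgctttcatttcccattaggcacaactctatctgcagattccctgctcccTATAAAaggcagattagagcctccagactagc
Cxcl12, chr6:117168285-117168534, plus strand: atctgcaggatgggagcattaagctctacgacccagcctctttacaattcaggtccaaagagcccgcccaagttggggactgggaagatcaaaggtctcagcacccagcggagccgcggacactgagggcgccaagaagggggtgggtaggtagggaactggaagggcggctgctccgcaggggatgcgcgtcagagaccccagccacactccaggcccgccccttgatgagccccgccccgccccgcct
Cxcl14, chr13:56296552-56296801, minus strand: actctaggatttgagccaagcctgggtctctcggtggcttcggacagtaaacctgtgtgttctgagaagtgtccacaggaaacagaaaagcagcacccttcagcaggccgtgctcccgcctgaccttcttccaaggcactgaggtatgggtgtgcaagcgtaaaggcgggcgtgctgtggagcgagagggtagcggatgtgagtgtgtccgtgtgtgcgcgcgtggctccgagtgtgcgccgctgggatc
The Cxcl12 and Cxcl14 stretches held 14 and 16 CG dinucleotides and the Cxcl1 stretch held 10, whereas the Ccl8 stretch held 1. GC content was 64.4%, 59.6%, 59.2% and 44.8% in that order.

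None of the 9 members with enough counts to be tested passed the test of DTR against Ctrl. At an edgeR adjusted p under 0.05 there were 0 of 9, beside 0% of all 15133 genes tested. At an unadjusted p under 0.05 there were also 0 of 9, beside 7.92% of all genes, and DESeq2 called 0 of 9 at an adjusted p under 0.05, beside 0.152% of the 20360 genes with an adjusted p. In 0 of 9 did the DTR libraries lie wholly above or below the Ctrl libraries, beside 14.5% of all genes. The fitted log2 fold change was below 0 for 5 members and above 0 for 4, with a median of -0.01 beside -0.00 for all genes. Without Ctrl 1 the split was 0 below and 9 above, and without DTR 3 it was 7 below and 2 above.

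The monocyte attractants Ccl2 and Ccl7, with the related Ccl8, were the first group. Ccl2 was at 85.9, 25.2 and 34.3 CPM in Ctrl and at 35.1, 25.0 and 52.0 CPM in DTR. Ctrl 1 stood far above the other 5 libraries, and the lowest library of each group lay near 25 CPM. The log2 fold change was -0.38 (SE 0.452, edgeR adjusted p = 0.836), and its 95% interval ran from a 0.374-fold to a 1.59-fold level in DTR. Ccl7, the neighbor of Ccl2 in the cluster, was at 36.0, 12.0 and 14.3 CPM in Ctrl and 19.4, 10.8 and 26.1 CPM in DTR. It followed Ccl2 closely, with the 6 libraries in the same order from high to low. The number of Ccl2 reads per Ccl7 read was between 1.81 and 2.40 in all 6 libraries, although Ccl2 varied 3.44-fold and Ccl7 3.35-fold between their highest and lowest library. The Ccl7 log2 fold change was -0.15 (SE 0.455, edgeR adjusted p = 0.941). Ccl8 was at 10.4, 7.54 and 8.96 CPM in Ctrl and at 13.1, 6.86 and 6.70 CPM in DTR. It was the steadiest member, with a ratio of 1.96 between its highest and lowest library and a log2 fold change of -0.01 (SE 0.292, edgeR adjusted p = 0.995).

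The eosinophil attractant Ccl11 was at 32.1, 17.0 and 21.6 CPM in Ctrl and at 40.5, 12.7 and 54.5 CPM in DTR. DTR 3 and DTR 1 were the highest libraries and DTR 2 was the lowest, so the DTR values enclosed those of Ctrl. It had the highest fitted log2 fold change of the members, 0.61 (SE 0.470, edgeR adjusted p = 0.746), with a 95% interval from 0.717-fold to 3.23-fold. Reads of Ccl11 per read of Ccl8, which lies in the same cluster, were between 1.85 and 3.09 in 5 libraries and 8.13 in DTR 3.

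The neutrophil attractants varied most. Cxcl1 was at 94.3, 27.3 and 16.9 CPM in Ctrl and 55.0, 24.1 and 95.1 CPM in DTR. Each group held 1 library near the top of the range and 1 near the bottom. Its log2 fold change of 0.33 (SE 0.667, edgeR adjusted p = 0.910) had a 95% interval from 0.432-fold to 3.66-fold, which is too wide to speak of equal levels. Cxcl5 was at 24.3, 3.43 and 2.39 CPM in Ctrl and at 6.69, 3.29 and 0.397 CPM in DTR, from 596, 82, 68, 230, 102 and 9 reads. Its highest library, Ctrl 1, stood 61.3-fold above its lowest, DTR 3. The log2 fold change of -1.52 (SE 1.04, edgeR adjusted p = 0.708) was the lowest of the members, and without Ctrl 1 it was 0.26.

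Among the members made without a stimulus, Cxcl12 was at 31.1, 21.2 and 30.0 CPM in Ctrl and 27.7, 18.9 and 56.2 CPM in DTR. Only DTR 3 stood out, and the log2 fold change was 0.32 (SE 0.365, edgeR adjusted p = 0.832). Cxcl14 was at 10.3, 3.89 and 4.22 CPM in Ctrl and 3.37, 8.44 and 3.57 CPM in DTR. In each group 1 library lay above the other 2, and the log2 fold change was -0.25 (SE 0.493, edgeR adjusted p = 0.907). Cxcl16 was at 7.27, 4.86 and 7.28 CPM in Ctrl and 2.85, 8.18 and 10.5 CPM in DTR. DTR held both its highest and its lowest library, and the log2 fold change was 0.14 (SE 0.438, edgeR adjusted p = 0.942). Ccl19 was listed at 0 reads in all 6 libraries and was not tested. Of the 50-base words in its annotated transcripts, 52% also occur in the transcripts of Ccl19-ps1, Ccl19-ps3, Gm12407 or Gm2564, and both copies named Ccl19-ps were at 0 as well. How reads with several alignments were counted is not given in the sources used here. The tested members shared no such word with another gene, except Cxcl5, with 0.693% of its words.

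**Figure D1:**
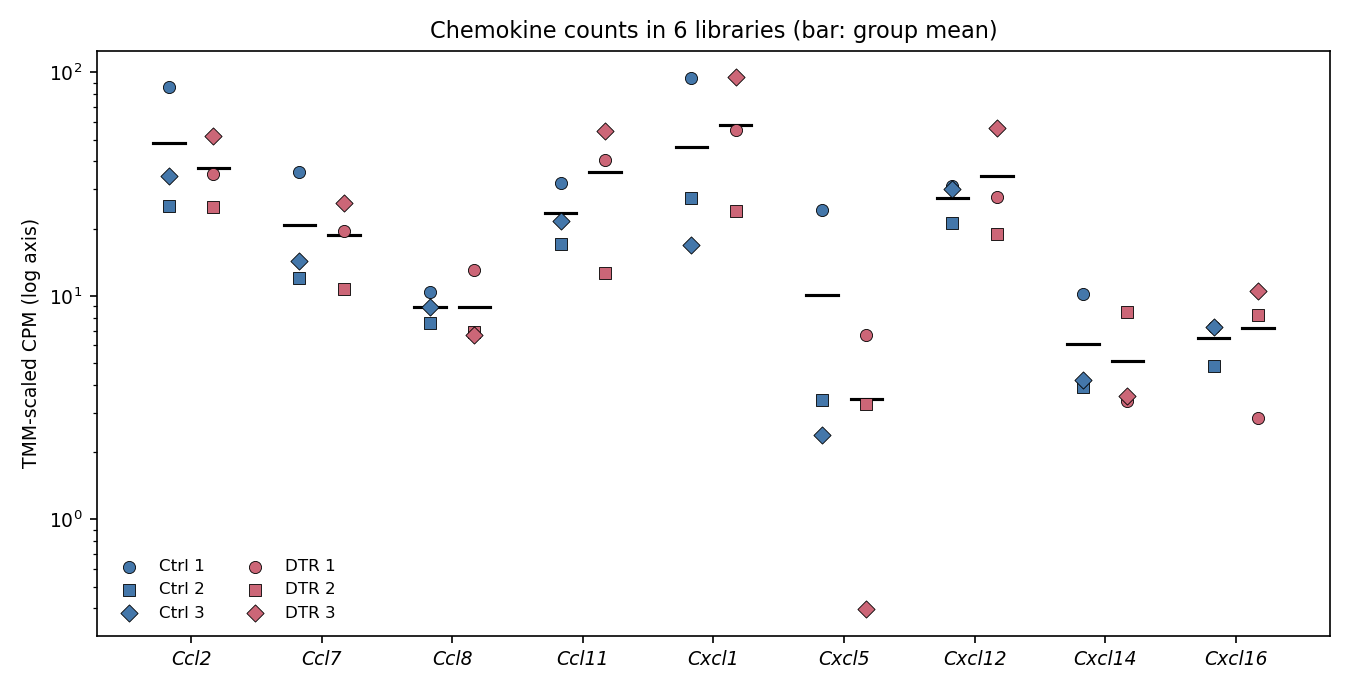
TMM-scaled CPM on a log axis for the 9 tested members, with 1 point per library, blue for Ctrl and red for DTR, and bars at the group means. The groups overlap for every member, and Cxcl5 spans the widest range, from 24.3 CPM in Ctrl 1 to 0.397 CPM in DTR 3.

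**Figure D2:**
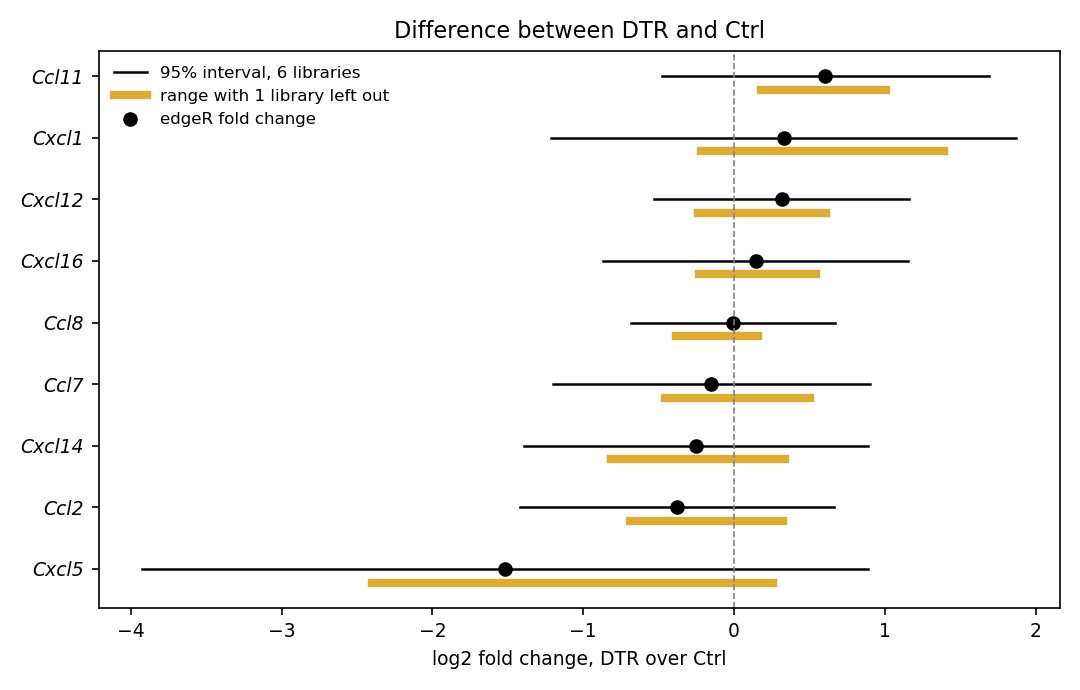
Log2 fold change of DTR over Ctrl from edgeR for the 9 tested members, with its 95% interval in black and, in yellow, the range of the value when each library was left out in turn. Every interval contains 0, and the yellow range of each member except Ccl11 also crosses 0.

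The spread between libraries of 1 group was larger for the members than for most genes. The pooled within-group SD of log2(CPM + 1) had a median of 0.719 over the members and 0.195 over all genes tested, and it was above the latter for 9 of 9. The added 1 lowers this SD for genes with few counts. Among fibroblast markers the SD was 0.443 for Pdpn, 0.639 for Fap, 0.712 for Pdgfra, 0.773 for Col1a1 and 0.928 for Dcn. A wide spread was therefore not particular to the members. Only 0.0793% of genes had a larger SD than Cxcl5 and 0.264% a larger one than Cxcl1, whereas 16.5% exceeded Ccl8. The members rose and fell together in some libraries. Ctrl 1 was above the gene's own 6-library mean for 9 of 9 members and Ctrl 2 for 0 of 9, with 3 in Ctrl 3, 5 in DTR 1, 2 in DTR 2 and 6 in DTR 3. Without Ctrl 1, the log2 fold changes of Ccl2 (0.32), Ccl7 (0.51), Ccl8 (0.11), Cxcl5 (0.26) and Cxcl14 (0.34) turned from below to above 0. Without DTR 3, those of Cxcl1 (-0.22), Cxcl12 (-0.24) and Cxcl16 (-0.23) turned the other way, and Ccl8 was again above 0 (0.16). Cxcl16 also turned without Ctrl 2 (-0.03), Cxcl1 without Ctrl 3 (-0.07), and Ccl7 (0.13) and Ccl8 (0.15) without DTR 2.

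Compared per kilobase of annotated exon, so that genes of different length can be ordered, the members formed a higher and a lower class. Ccl2 averaged 37.7 CPM per kilobase over the 6 libraries, Cxcl1 27.8, Ccl11 27.5, Ccl7 24.7 and Ccl8 17.5. Cxcl12 followed at 3.78 CPM per kilobase, Cxcl5 at 3.63, Cxcl14 at 3.08 and Cxcl16 at 2.26. The place of Cxcl12 rests on its length, since its 30.9 CPM were divided by 8176 bases of exon, against 511 bases for Ccl8. Its longest transcript has 5627 bases, and which transcripts were present was not tested. Ccl8, the last of the higher class, was above Cxcl12 in 6 of 6 libraries. Every other pair of neighbors in this order, apart from Cxcl16 and the undetected Ccl19, changed places in at least 1 library. The per-length levels of all members summed to 245.5, 90.4 and 104.2 in Ctrl and to 157.3, 84.8 and 204.9 in DTR. The groups overlapped (146.7 ± 85.9 against 149.0 ± 60.5, SD, n = 3 each, two-sided exact permutation p = 1, where 0.1 is the smallest p possible). Of that sum, Ccl2, Ccl7 and Ccl8 together made up 59.2% ± 3.21 in Ctrl and 51.2% ± 6.50 in DTR (SD, n = 3 each, exact permutation p = 0.3). Cxcl1 and Cxcl5 made up 25.8%, 18.2% and 9.87% in Ctrl and 20.9%, 17.2% and 24.8% in DTR (exact permutation p = 0.7), and Ccl11 16.2% ± 3.68 and 20.7% ± 5.97 (exact permutation p = 0.3).

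**Figure D3:**
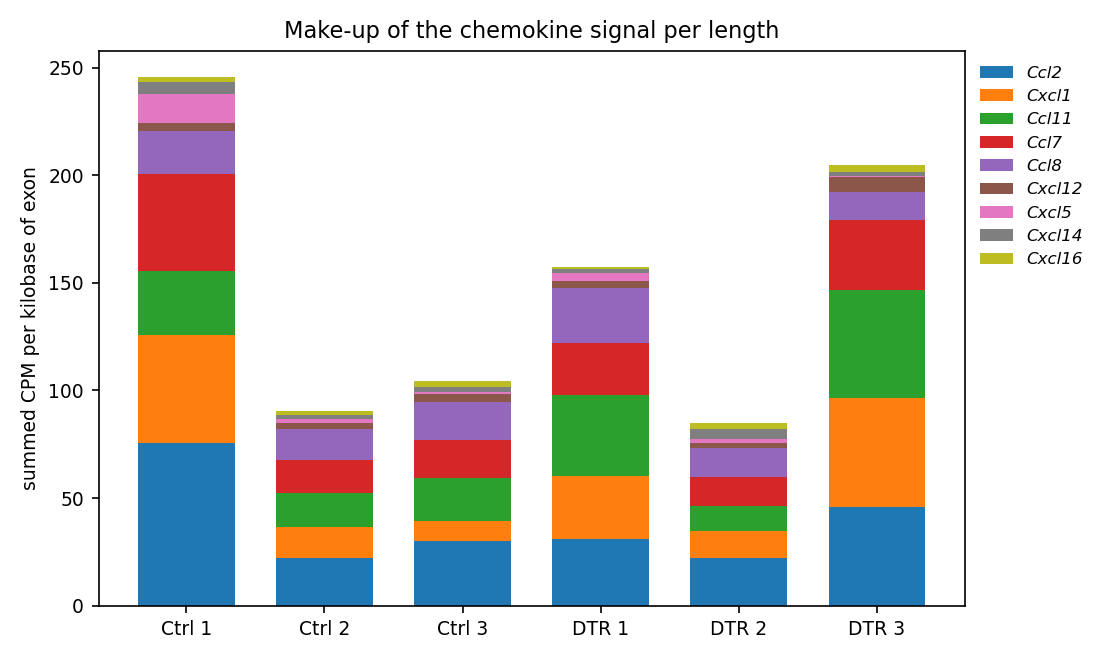
Summed CPM per kilobase of exon in each library, with 1 bar per library split by member. Ccl2, Cxcl1, Ccl11, Ccl7 and Ccl8 fill most of every bar, and the height runs from 84.8 in DTR 2 to 245.5 in Ctrl 1.

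The level of several members went with that of the fibroblast markers. For Ccl2, Ccl7, Ccl11 and Cxcl1, the 3 highest libraries were Ctrl 1, DTR 1 and DTR 3, the same 3 that stood apart in the sum of the 10 fibroblast markers. For Ccl8, Cxcl5, Cxcl12, Cxcl14 and Cxcl16 the 3 highest libraries were another set. The members were therefore also expressed per 1000 CPM of these markers, a scale chosen after the values had been seen. Col1a1, Col1a2 and Col3a1 made up 92.1% to 95.6% of the marker sum, and 9 of the 10 markers had a log2 fold change above 0 (median 0.38, 0 passed), so the division lowers the members in DTR relative to CPM. Without DTR 3, 6 of the 10 markers were above 0 (median 0.04), and without Ctrl 1 all 10 were (median 0.90). On that scale Ccl2 was at 6.27, 4.80 and 6.58 in Ctrl and 3.23, 4.45 and 3.67 in DTR. Ccl7 was at 2.63, 2.29 and 2.74 in Ctrl and 1.79, 1.92 and 1.84 in DTR. For both, the highest DTR value was below the lowest Ctrl value, as it was for 0.932% of all genes, while 1.06% had every DTR value above every Ctrl value. The marker sum varied 2.72-fold over the libraries, so a gene that does not follow it tends to overlap after the division. In CPM, 14.5% of all genes did not overlap, so the small share on this scale does not set Ccl2 and Ccl7 apart. The other 7 tested members overlapped. Cxcl1, for example, was at 6.88, 5.21 and 3.23 in Ctrl and 5.06, 4.29 and 6.71 in DTR, and Ccl11 at 2.34, 3.24 and 4.14 against 3.72, 2.27 and 3.85. Set against the markers 1 by 1, Ccl2 was wholly lower in DTR for 7 of 10, Ccl7 for 5 of 10 and Cxcl12 for 1 of 10. All remaining pairs of member and marker overlapped. The share of all genes was not computed for this division. All markers were read in the same 6 libraries, so these counts are not repeated evidence.

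With the log2 marker sum as a covariate in edgeR, the log2 fold change was -0.63 for Ccl2 (SE 0.171, unadjusted p = 0.00666) and -0.47 for Ccl7 (SE 0.138, unadjusted p = 0.00951). The adjusted p from edgeR was 0.587 for both, so neither passed the threshold. In this fit 3.57% of all genes had an unadjusted p under 0.05 with a lower level in DTR, and 0% had an adjusted p under 0.05. The remaining members had unadjusted edgeR p-values of 0.207 or more. Ccl2 and Ccl7 ran in the same order over the libraries and are not separate evidence. The fibroblast marker sum itself overlapped between Ctrl and DTR (8053 ± 4882 against 10220 ± 4317 CPM, SD, n = 3 each).

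**Figure D4:**
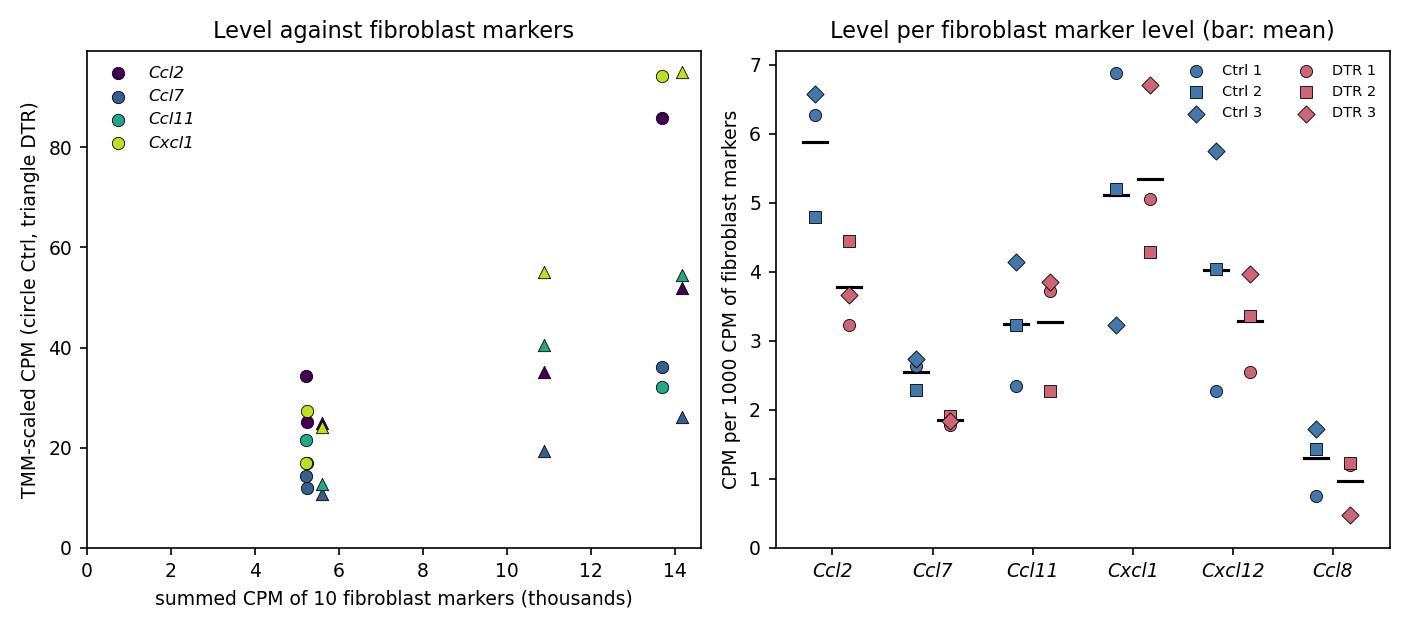
Left, TMM-scaled CPM of Ccl2, Ccl7, Ccl11 and Cxcl1 against the summed CPM of 10 fibroblast markers, with circles for Ctrl and triangles for DTR libraries. Right, CPM per 1000 CPM of these markers for 6 members with bars at the group means, where Ccl2 and Ccl7 are the ones without overlap.

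Cxcl1 and Cxcl5 lie in 1 cluster of chromosome 5 and bind the same receptor, yet they parted in DTR 3. Reads of Cxcl1 per read of Cxcl5 were 3.87, 7.96 and 7.06 in Ctrl and 8.23 and 7.32 in DTR 1 and DTR 2, but 239 in DTR 3. That library had the highest Cxcl1 level, and its Cxcl5 level rested on 9 reads. Of the other genes of the cluster, named after their values were seen, Cxcl2 and Pf4 were at their lowest there too. Cxcl2, another neutrophil attractant that lies 10755 bases beyond Cxcl1, was at 8.54, 3.56 and 2.85 CPM in Ctrl and 3.72, 2.90 and 1.85 CPM in DTR, with its libraries in the same order as those of Cxcl5. Pf4, a platelet chemokine, was at 3.96, 2.05 and 1.30 CPM in Ctrl and 2.33, 0.612 and 0.309 CPM in DTR. Cxcl3 was at 1.80 CPM in Ctrl 1 and at 0.436 CPM or less in the rest. Ctrl 1 was the highest library for Cxcl5, Cxcl2, Pf4 and Cxcl3, and it also had the highest neutrophil marker sum (7.72 CPM, against 1.34 to 2.04 CPM in the rest); neutrophils are CD45+ cells, which the sort was set to exclude, and their part in these values was not tested. The promoter stretches of Cxcl2 and Cxcl3 held the same NF-kB letters as Cxcl1, 96 and 72 bases before the start. Their last 100 bases before the start are printed to be read beside the end of the Cxcl1 stretch, with the NF-kB and TATA letters in capitals.
Cxcl2, chr5:90903799-90903898, plus strand: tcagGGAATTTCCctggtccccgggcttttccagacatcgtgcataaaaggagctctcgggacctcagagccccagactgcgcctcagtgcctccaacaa
Cxcl3, chr5:90786001-90786100, plus strand: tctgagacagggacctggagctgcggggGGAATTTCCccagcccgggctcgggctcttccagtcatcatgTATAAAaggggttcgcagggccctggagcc
Of the 22 other chemokine genes with a promoter in the table, 3 held the NF-kB letters in the 250 bases before a start, and the third was Cxcl10.

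**Figure D5:**
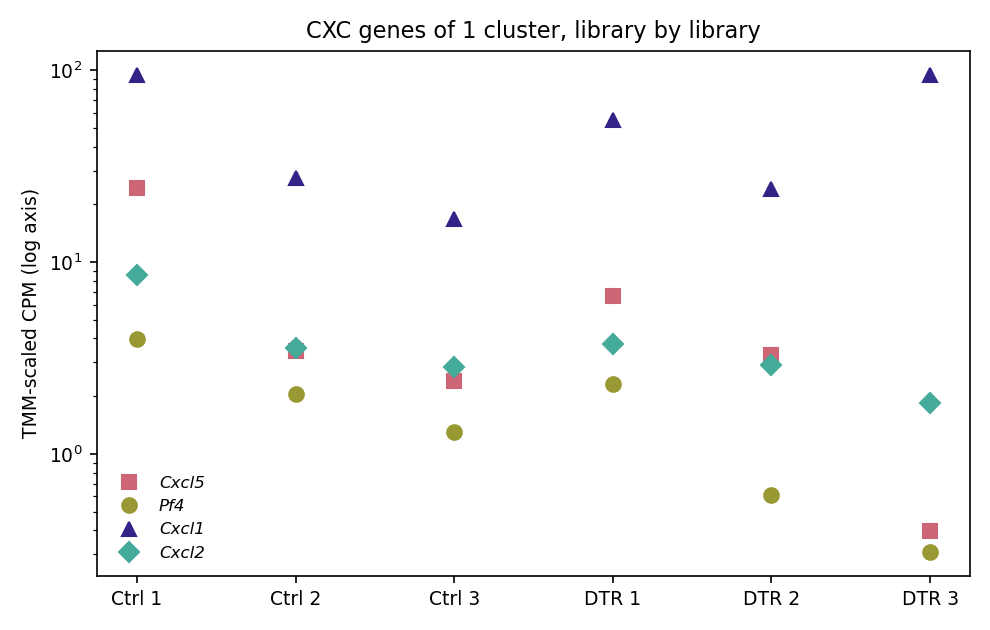
TMM-scaled CPM on a log axis of Cxcl5, Pf4, Cxcl1 and Cxcl2 in each library. Cxcl1 is as high in DTR 3 (95.1 CPM) as in Ctrl 1 (94.3 CPM), whereas Cxcl5, Pf4 and Cxcl2 are at their lowest in DTR 3.

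The rest of the pathway was read from lists of genes, whose median log2 fold changes were -0.09 for other ligands, 0.17 for receptors, 1.13 for atypical receptors, 0.20 for the NF-kB pathway, -0.06 for induced cytokines and enzymes and 0.04 for proteases and mRNA-degrading proteins, beside -0.00 for all genes. Without DTR 3 these medians were -0.23, -0.07, 0.11, -0.04, -0.32 and -0.13. Of 28 other chemokine ligands, 16 were tested, and 0 passed an edgeR adjusted p under 0.05. Cxcl10, an interferon-induced attractant of T cells, was at 54.7, 69.6 and 84.1 CPM in Ctrl and at 95.1, 85.6 and 176.6 CPM in DTR. It was higher in every DTR library, and its log2 fold change of 0.78 (SE 0.281) had an unadjusted p of 0.0247 and an adjusted p of 0.602 in edgeR. Without DTR 3 the value was 0.38, and Cxcl10 was the 1 of 16 without overlap, beside 14.5% of all genes. Cxcl9, induced by the same signal, was at 38.6, 32.5 and 61.7 CPM in Ctrl and 29.1, 39.2 and 120.2 CPM in DTR, with overlap, and its log2 fold change of 0.50 was -0.38 without DTR 3. Pf4 had the lowest log2 fold change of these ligands, -1.14 (SE 0.751, edgeR adjusted p = 0.698), which was -0.61 without Ctrl 1 and -2.36 without DTR 1.

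Receptor genes had few reads, with the 19 summing to 32.9 to 50.3 CPM, and 0 of the 12 tested passed. Log2 fold changes ran from -1.08 for Cxcr5 to 1.38 for Ccr9, both with overlap. Each rested on 1 library, with -0.16 for Cxcr5 without Ctrl 2 and 0.03 for Ccr9 without DTR 1. The receptors of the members, were chosen for that pairing after the values were seen. Ccr2, which binds CCL2 and CCL7, was at 2.82 to 10.6 CPM, Ccr7 at 3.02 to 8.78 CPM, Cxcr4 at 0.926 to 5.15 CPM and Cxcr6 at 0 to 3.39 CPM. Cxcr2 was at 1.55 CPM or less and Ccr8, a receptor reported for mouse CCL8, at 0.309 CPM or less, and Ccr3 was listed at 0 in all libraries. Of the 4 atypical receptors, which bind chemokines without signaling through G proteins, 4 had a log2 fold change above 0 and 0 passed. Without DTR 3 there were 3 above and 1 below, Ackr1 moved from 1.43 to -0.06, and the median of the list fell to 0.11. The 10 endothelial markers also summed highest in DTR 3, to 107.8 CPM against 35.9 to 55.8 CPM elsewhere. Their median log2 fold change was 0.51, and 0.02 without DTR 3, and their part in the receptor values was not tested. Ackr3, which takes up CXCL12, was at 64.9, 27.8 and 25.1 CPM in Ctrl and 59.0, 34.1 and 115.3 CPM in DTR. Ackr3 was highest in DTR 3, Ctrl 1 and DTR 1, and its log2 fold change was 0.82 (SE 0.490, edgeR adjusted p = 0.673). Without DTR 3 its value was 0.25. Ackr2 (1.66, and 0.16 without DTR 3) and Ackr4 (0.15) marked the ends of the range.

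Of 24 genes for inflammatory cytokine receptors and the NF-kB pathway, 23 were tested and 0 passed, with 5 below and 18 above 0, beside 7626 below and 7507 above among all genes. The split rested on DTR 3, without which 15 were below and 8 above. The kinase Irak1 was the 1 gene of 23 without overlap, a smaller share than the 14.5% of all genes, at 76.7 to 85.8 CPM in Ctrl and 72.8 to 75.9 CPM in DTR (log2 fold change -0.14, SE 0.0859, edgeR adjusted p = 0.675). The extremes were Tnfaip3 (-0.22), which restrains NF-kB, and Il1rl1 (1.06), the interleukin-33 receptor. Tnfaip3 was at -0.57 without DTR 3 and -0.05 without DTR 2, and Il1rl1 at 1.89 without Ctrl 1. The abundant members Tnfrsf1a (0.19), Il6st (0.10), Nfkb1 (0.31) and Nfkbiz (0.54) lay between them, with overlap. Without DTR 3, Il6st was at 0.01, Nfkb1 at 0.00 and Nfkbiz at -0.04, and without Ctrl 2 Tnfrsf1a was at 0.09. The adaptor Myd88 was listed at 0 in all libraries, as Ccl19 was.

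Cytokines and enzymes that are induced beside chemokines held the lowest unadjusted p-values of these lists. Of 19, 17 were tested and 0 passed in edgeR, while 3 were wholly lower in DTR and 0 wholly higher, beside 14.5% of all genes in either direction. The acute-phase gene Saa3 was at 44.7, 12.0 and 20.7 CPM in Ctrl and 6.69, 4.70 and 7.41 CPM in DTR (log2 fold change -2.04, SE 0.449, edgeR adjusted p = 0.602, DESeq2 adjusted p = 0.000321). Lcn2, an iron-scavenging protein of neutrophils and stroma, was at 3.68, 3.31 and 2.95 CPM in Ctrl and 0.233, 0.161 and 0.794 CPM in DTR (log2 fold change -3.11, SE 0.604, edgeR adjusted p = 0.602, DESeq2 adjusted p = 0.000660). The third was Tnf, named after its values were seen, at 1.27 to 2.14 CPM in Ctrl and 0.870 to 1.10 CPM in DTR. At the other end stood Has2, a hyaluronan synthase (log2 fold change 0.89, with 0.40 without DTR 3 and 1.43 without Ctrl 1), and the abundant genes Csf1 (0.38, and 0.11 without DTR 3) and Mmp3 (-0.37, and 0.14 without Ctrl 3) overlapped between the groups.

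Of 11 genes whose products cleave chemokines or degrade their mRNA, 10 were tested and 0 passed in edgeR. Mmp9, a metalloproteinase that trims CXC chemokines, was at 9.27, 3.14 and 4.68 CPM in Ctrl and 1.48, 1.64 and 1.24 CPM in DTR (log2 fold change -1.96, SE 0.433, edgeR adjusted p = 0.602, DESeq2 adjusted p = 0.0115). Mmp13 had the lowest log2 fold change of the list, -3.09 (SE 0.941, edgeR adjusted p = 0.602, DESeq2 adjusted p = 0.0260), with overlap. It was at 2.94, 0.921 and 12.5 CPM in Ctrl and 0.465, 0.354 and 1.15 CPM in DTR. Ctrl 3 held most of its reads, and without that library the edgeR log2 fold change was -1.57. Dpp4, which inactivates CXCL12 and CCL11 and also marks a fibroblast subset, was at 44.8, 21.5 and 33.3 CPM in Ctrl and 62.4, 29.7 and 191.3 CPM in DTR. Its log2 fold change of 1.51 (SE 0.611, edgeR adjusted p = 0.604) was the highest of the list, and it was 0.47 without DTR 3. The other abundant genes, Adam10 (0.06), Adam17 (0.09), Mmp2 (1.15), Mmp14 (0.01) and Zfp36 (0.37), overlapped between the groups. Without DTR 3, Mmp2 was at 0.34, Mmp14 at -0.12 and Zfp36 at -0.14, and without DTR 2 Adam10 was at -0.01. Saa3, Lcn2, Mmp9 and Mmp13 were the 4 genes of these further lists with an adjusted p under 0.05 in DESeq2, which called 31 of 20360 genes (0.152%). As the lists were chosen with earlier results of these data known, this count is not independent evidence, and the difference from the members was not tested.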

How the data were processed

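RNA of PDPN+PDGFRα+ cells from MO5 tumors was analyzed in 6 libraries, 3 Ctrl and 3 DTR by the genotype in the sample labels. The authors prepared stranded total RNA libraries, trimmed reads with cutadapt 3.4, aligned them to GRCm38 with STAR 2.7.3a and counted them per gene with featureCounts 2.0.1 using strand; the annotation release is given differently in their methods and their data statement. The deposited raw counts, without normalization, were the values used. The authors also deposited a normalized score per library, which is the count divided by a size factor and rounded, and columns of their own comparison (fold changes, p-values, dispersions); none of these was used.

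Genes were kept by filterByExpr (minimum count 10, minimum total 15), which left 15133, and compared with the quasi-likelihood test of edgeR 4.0.16 (R 4.3.3) on TMM-scaled counts, two-sided, with Benjamini-Hochberg adjustment over all of them and a threshold of 0.05. The study's own tool, DESeq2 (here 1.42.0), was an alternative. Standard errors were obtained by dividing each log2 fold change by the root of its F value. Single values were compared with the exact permutation test over 6 libraries. Group overlap and SDs used TMM-scaled CPM, and log2 values a pseudocount of 1. Levels per length used the union of GENCODE M21 exons. Python 3.11.15 and matplotlib 3.10.9 were used, and the fits were tested on simulated data. Intervals and floors cover counting error or the spread of these libraries only.

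The members and lists were chosen with earlier results of these data known. Named genes were all members, Adam12, and of each list those past the threshold, otherwise its lowest and highest log2 fold change, those with a mean of 50 CPM or more, and up to 2 without overlap. Alternatives were RLE size factors, library size alone, 2 count filters, DESeq2, the replicate number as a block, an offset for genomic span, each library left out and the longest transcript as length. The fibroblast covariate and the scale per fibroblast marker level were added after seeing the data.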

Additional observations from a re-analysis of the deposited data

How the results depend on the processing

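The count of members past the threshold was 0 in the main analysis and in all 14 other fits, and the lowest adjusted p of any member in any fit was 0.513 (edgeR or DESeq2, with 3 libraries per group or fewer). The median log2 fold change of the members, -0.01, ran from -0.23 to 0.34 when single libraries were left out. Of 125 values for single members under an alternative, 106 kept their direction and 19 reversed, and 0 crossed the threshold. Ccl8, at -0.01 as reported, was at 0.0014 with RLE size factors, 0.019 with library size alone, 0.00082 with DESeq2 and 0.023 with the span offset. With the fibroblast covariate, chosen after seeing the data, Cxcl1 was at -0.11 and Cxcl12 at -0.035. Members whose groups did not overlap numbered 0 in CPM, 0 with RLE size factors or library size alone, and 2 per fibroblast marker level, a scale also chosen after seeing the data. When libraries were left out, the ranges were -0.69 to 0.32 for Ccl2, -0.46 to 0.51 for Ccl7, -0.39 to 0.16 for Ccl8, 0.18 to 1.01 for Ccl11, -0.22 to 1.39 for Cxcl1, -2.40 to 0.26 for Cxcl5, -0.24 to 0.61 for Cxcl12, -0.82 to 0.34 for Cxcl14 and -0.23 to 0.54 for Cxcl16. Genes of the further lists past the threshold numbered 4 with DESeq2 and 0 in the main analysis; the cause was not tested. Correlations of deviations were 0.163, 0.185 and -0.0762 for libraries with the same replicate number and -0.296 to 0.163 for different numbers. So few values cannot decide whether the numbers pair the libraries. With the replicate block the median was -0.07 and 0 members passed. The SE went from 1.04 to 0.469 for Cxcl5 and from 0.493 to 0.515 for Cxcl14. With 3 libraries per group, intervals were as wide as 0.0659-fold to 1.85-fold for Cxcl5, and the lowest edgeR adjusted p of all 15133 genes was 0.602, so a missed threshold leaves large changes possible.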
